A study of Zea mays with 45 samples.

Results

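Plants make phenolic compounds from phenylalanine through the phenylpropanoid pathway. Phenylalanine ammonia-lyase opens it, 4-coumarate-CoA ligase turns the hydroxycinnamic acids into the CoA esters from which flavonoids and lignin both branch, cinnamoyl-CoA reductase leads the CoA esters into the lignin branch, and O-methyltransferases add methyl groups to the phenolic rings. Flavonoids and other products of the pathway absorb ultraviolet-B (UV-B) light in leaves, and the pathway's genes are known in many plants to respond to UV-B.

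The 4 genes described here are the members of this pathway that the probe annotation names: PAL1 (LOC542258, phenylalanine ammonia-lyase), 4CL (LOC542166, 4-coumarate-CoA ligase), cncr1 (LOC542463, cinnamoyl-CoA reductase) and pOMT1 (LOC542560, an O-methyltransferase whose substrate the annotation does not give). They were chosen by name, not by their values, out of 329 genes with a symbol. PAL1, 4CL and pOMT1 have 1 probe on each array design and cncr1 has 2, called here cncr1 probe 1 and cncr1 probe 2, so the genes are measured by 5 of 5640 probes in 1 table and by 5 of 5760 in the other. Each probe was spotted 3 times. The probes are cDNAs, which can hybridise with close relatives of a gene, and PAL and O-methyltransferase genes belong to families, so the value of 1 gene is uncertain to that extent.

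The study compared leaf RNA of 6 maize lines on spotted cDNA arrays read in 2 colours: the inbred W23, partly as the W23 b,pl stock (b and pl are loci that regulate anthocyanin), and the landraces Arrocillo, Cacahuacintle, Conico, Confite and Mishca. In the field, plants stood from about day 14 after sowing under plastic that let solar UV-B through or under polyester that removed it, and a further group received extra UV-B from lamps. One set of arrays compared solar UV-B with no UV-B in each line, another compared supplemental with solar UV-B in each line, and the others set a landrace against W23 under 1 treatment, with or without UV-B. For Confite and Mishca against W23 the plants grew for 3 weeks in a greenhouse without UV-B and were then kept for 8 h under UV-B lamps or under the same lamps covered with polyester. For Arrocillo, Cacahuacintle and Conico against W23 no filter start, greenhouse period or exposure time is recorded in the sample labels used here. The labels do not say how many plants made up an RNA sample or whether arrays of 1 line came from separate plants, so p-values do not measure the spread between plants. In the main fits, limma p-values rest on the spread between arrays of the same line and treatment that is left after a channel term. That term, shared by all lines, takes up what changes with which RNA was in channel 1. In the UV-B fits, paired arrays of a line had opposite channel orders. A difference between them that the lines share therefore does not enter that spread. Variances were moderated over all probes. A line with 1 distinct array adds nothing to that spread. The limma p-value of a mean over lines does not take in the spread from line to line.

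Of 45 columns 36 were distinct and were used. The solar comparison had 9 of them and the supplemental comparison 8, while 12 set Arrocillo, Cacahuacintle or Conico and 7 set Confite or Mishca against W23. Values are log2 ratios centred on the median of each array, whose SD over probes ran from 0.27 to 0.66. Which RNA stands on top of the deposited ratio is not given in the sources used here, nor is whether columns with exchanged channels had been turned to 1 direction before deposit. So each value is given with the sign it was deposited with, as positive or negative, and no gene is called higher or lower under UV-B or in a landrace. The label of an array does give its channel order, that is, which RNA was in channel 1, and for 8 arrays the same values were deposited under both orders. If the columns had not been turned, a value on the same side in both orders would not be a difference in 1 direction. Across probes, arrays of opposite order correlated at 0.44 in W23, 0.28 in Conico and -0.24 in Mishca under solar UV-B, and at -0.07 in Conico and -0.11 in Confite under supplemental UV-B. Against W23 without UV-B they correlated at 0.16 in Arrocillo, 0.13 on average in Cacahuacintle, 0.43 in Conico and 0.23 in Confite. With UV-B the values against W23 were 0.06 in Arrocillo, 0.37 in Conico, -0.11 in Confite and -0.18 in Mishca. The tables hold ratios and no levels, so the leaf markers could not be checked as levels. Shifts of these markers are given beside the comparisons.

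In the comparison of solar UV-B with no UV-B, PAL1 lay on the negative side in all 6 lines, and it was the only one of the 4 tested probes that was called. A probe was called when its mean over the lines had a limma Benjamini-Hochberg adjusted p under 0.05. That threshold was passed by 35% of the 4239 probes tested, so 1 of 4 is no more than the background. The median of the 4 means was -0.10, beside 0.01 over all tested probes, and the median size was 0.12 beside 0.11. Of the marker probes 3 of 4 from mesophyll were called on the positive side and 2 of 4 tested from seed and pollen on the negative. None of 2 from bundle sheath was called. The part of the markers in these means was not tested.

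PAL1 measured -0.28 and -0.05 on the W23 arrays, -0.28 and -0.52 in Conico and -0.25 and -0.38 in Mishca. It measured -0.15 in Arrocillo, -0.09 in Cacahuacintle and -0.18 in Confite, each with 1 distinct array. All 9 arrays thus lay on the negative side of the deposited ratio, in either channel order, with Conico the farthest from 0 and one W23 array the nearest. The mean over lines was -0.22 with an SE of 0.05 (limma adjusted p = 0.0245), a difference of 1.16-fold, and 21.2% of all tested probes had a larger one. Read as ratios that follow the channel order, the arrays of W23, Conico and Mishca gave a mean of 0.02 (limma adjusted p = 0.915). The arrays of the other lines, deposited under both orders, could not be read so and were left out of that mean. An exact two-sided sign-flip permutation test over the 6 line means gave p = 0.0312, the smallest that 6 lines allow, and 0.156 after adjustment over the 10 such tests made here. The 6 lines were not shown to differ from each other in PAL1 (moderated F test, limma adjusted p = 0.533), a test that called 0.0236% of all probes and 1751 of them at an unadjusted p under 0.05. With sections of consecutively numbered spots centred, as described below, that test called 19.4% of all probes and still not PAL1 (limma adjusted p = 0.311). Without the second Mishca array the adjusted p was 0.0508 and without the second Conico array it was 0.0813, with means of -0.21 and -0.19.

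4CL, the next of the members along the pathway, measured 0.05 and -0.16 in W23, 0.44 and 0.11 in Conico and 0.27 and -0.36 in Mishca. It measured 0.33 in Arrocillo, 0.20 in Cacahuacintle and 0.06 in Confite. The array with the solar UV-B RNA in channel 1 was the more positive of the pair in each of these 3 lines with both orders. The mean over lines was 0.13 with an SE of 0.05 and was not called (limma adjusted p = 0.0886), while the channel term, the part of the value that turns with the channel order, was 0.19 and was called (limma adjusted p = 0.0490), as it was for 28.9% of probes.

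cncr1 probe 2 lay on the negative side on 8 of 9 arrays. It measured -0.08 and -0.05 in W23, -0.35 and -0.57 in Conico, -0.02 and -0.30 in Mishca, -0.05 in Arrocillo, -0.16 in Confite and 0.31 in Cacahuacintle. Its mean was -0.10 with an SE of 0.04 (limma adjusted p = 0.135). Taken alone, Conico was called at -0.46 (limma adjusted p = 0.0469), where 4.67% of all probes were, and a difference between lines was not called (moderated F test, limma adjusted p = 0.0984). cncr1 probe 1 was blank in Arrocillo and on one W23 array and was not tested. Its 7 values ran from -0.43 in Confite to 0.33 in Mishca, 4 of them positive.

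pOMT1 lay apart by channel order in Conico and Mishca, on opposite sides of 0. It measured 0.05 in W23, -0.36 in Conico and -0.21 in Mishca with the solar UV-B RNA in channel 1, and 0.30, 0.34 and 0.49 with the channels exchanged. The arrays of Arrocillo, Cacahuacintle and Confite, deposited under both orders, measured -0.20, -0.33 and -0.42. The mean over lines was -0.11 (SE 0.05, limma adjusted p = 0.162) and the channel term was -0.28 (limma adjusted p = 0.0257), and 11.7% of probes had a larger one.

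**Figure D1:**
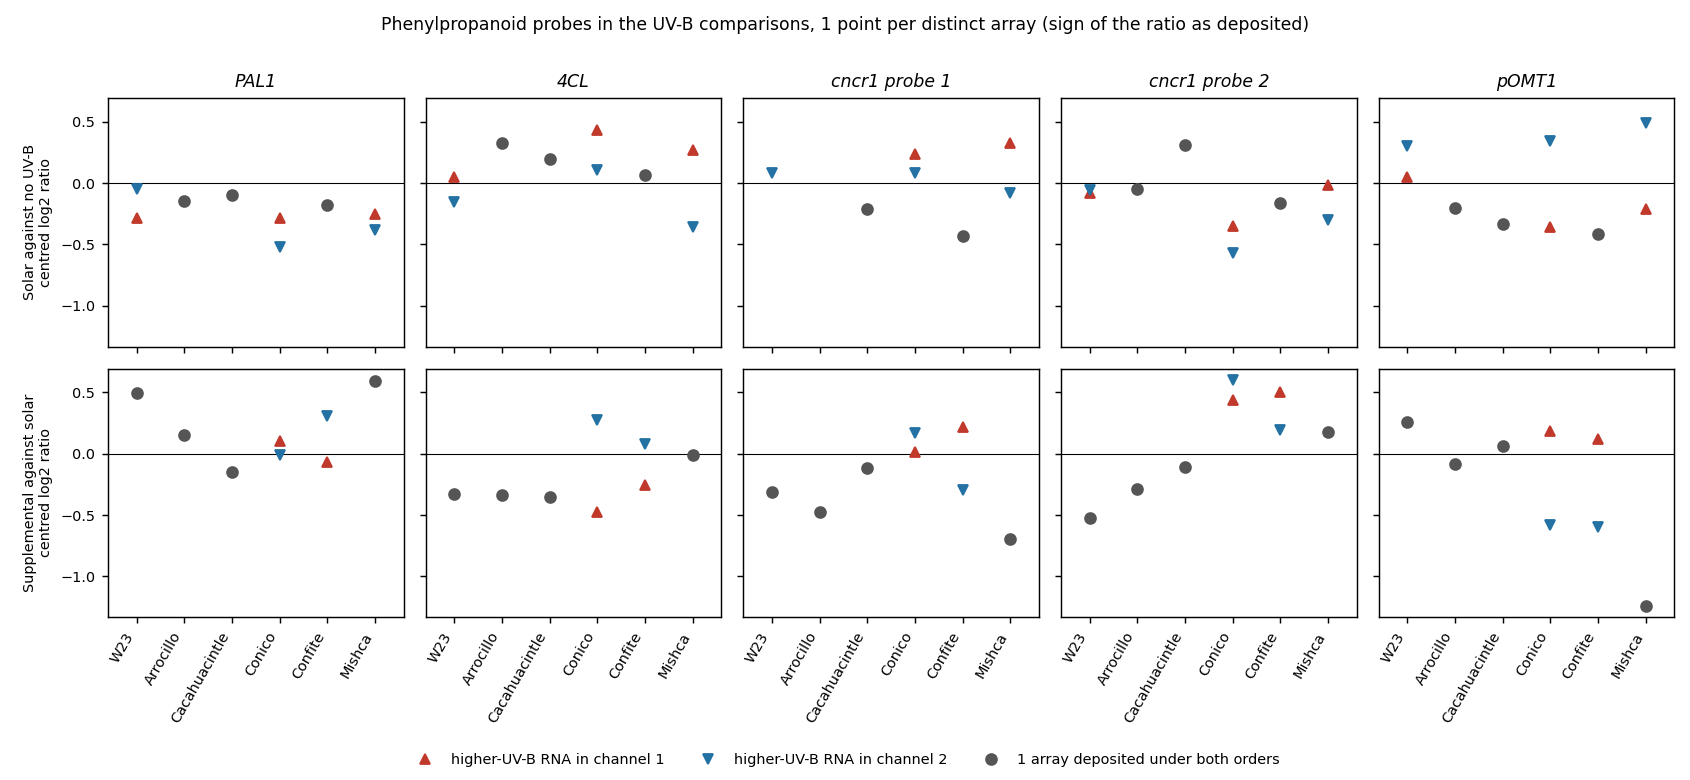
Centred log2 ratios (y axes, sign as deposited) of the 5 probes in each line (x axes), for solar against no UV-B (top) and supplemental against solar UV-B (bottom). Each point is 1 distinct array, shaped by channel order. PAL1 lies below 0 on all 9 solar arrays, pOMT1 lies apart by channel order in Conico, Mishca and Confite, and the Mishca array under supplemental UV-B is the lowest point of pOMT1 at -1.24.

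These means also varied with the spot numbers of a probe. The spots are numbered in 8 runs, which were divided into 16 sections of consecutive spots. The physical layout of the spots is not given in the sources used here, so a section is a block of spot numbers. In the section of PAL1 the median of the solar means was -0.10, with 8 probes called on the positive side and 97 on the negative, and in the section of cncr1 probe 2 it was 0.13, with 120 positive and 7 negative calls. When every section was centred on its own median, PAL1 moved to -0.11 and was not called (limma adjusted p = 0.0876), while cncr1 probe 2 moved to -0.22 and was called (limma adjusted p = 0.0091), and 4CL and pOMT1 moved to 0.07 and -0.01. With that centring 39% of all probes were called. Which centring is the right one cannot be told from the ratios.

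When supplemental was set against solar UV-B, 4 of 5 probes were called, against 31.7% of all 4744 tested: PAL1 on the positive side and 4CL, cncr1 probe 1 and pOMT1 on the negative. These calls rested on few arrays, since 4 of the 6 lines had 1 distinct array and each probe kept 1 residual degree of freedom. Moderation added 16.9 degrees of freedom pooled over all probes. The SEs and p-values here therefore reflect mostly that pooled variance and little of the spread of a probe's own values. Without the single Mishca array, which had the largest SD of any array, 0 of 5 were called, and the share of all probes called fell to 15.4%. This comparison has the solar UV-B condition in common with the one above, and the labels do not say whether the same leaves or RNA served in both. Of the marker probes 2 of 6 tested from seed and pollen were called on the positive side, and none of 4 from mesophyll or of 2 from bundle sheath. The part of the markers in these means was not tested.

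PAL1 measured 0.50 in W23, 0.59 in Mishca, 0.15 in Arrocillo and -0.15 in Cacahuacintle. It measured 0.11 and -0.01 in Conico and -0.07 and 0.31 in Confite. W23 and Mishca stood high, and the other lines lay on both sides of 0. The mean was 0.21 with an SE of 0.08 (limma adjusted p = 0.0442) and 0.13 without the Mishca array (limma adjusted p = 0.275).

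4CL measured -0.33 in W23, -0.33 in Arrocillo, -0.35 in Cacahuacintle and -0.01 in Mishca. With the supplemental UV-B RNA in channel 1 it measured -0.47 in Conico and -0.26 in Confite, and 0.27 and 0.08 with the channels exchanged. All 6 line means were negative (mean -0.20, SE 0.08, limma adjusted p = 0.0484). The channel term was -0.27, larger in size than the mean, and was not called (limma adjusted p = 0.0599). Lines with 1 distinct array were deposited under both orders, so a channel effect in their values could not be taken out. The exact sign-flip permutation test, which has no channel term, gave p = 0.0312, and 0.156 after adjustment over the 10 tests. The call was lost when any one of the W23, Mishca, Arrocillo or Cacahuacintle arrays was left out, with means between -0.24 and -0.17 and limma adjusted p-values between 0.0516 and 0.115.

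cncr1 probe 1 measured -0.31 in W23, -0.48 in Arrocillo, -0.11 in Cacahuacintle and -0.69 in Mishca, and on both sides of 0 in Confite (0.22 and -0.29), while both Conico values were positive (0.01 and 0.17). Its mean was -0.26 with an SE of 0.08 (limma adjusted p = 0.0202). Without the Mishca array the mean was -0.17 (limma adjusted p = 0.174), and without the Arrocillo array it was -0.21 (limma adjusted p = 0.0649). cncr1 probe 2 measured -0.52 in W23, -0.29 in Arrocillo and -0.11 in Cacahuacintle, but 0.18 in Mishca, 0.50 and 0.20 in Confite and 0.44 and 0.60 in Conico, the last from 1 spot. The lines fell on opposite sides, and the mean over them was 0.02 (SE 0.08, limma adjusted p = 0.858). The difference between lines was called (moderated F test, limma adjusted p = 0.0256), as it was for 24.6% of all probes.

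pOMT1 measured -1.24 in Mishca, the value farthest from 0 of any member in either UV-B comparison. In the other lines with 1 distinct array it measured 0.25 in W23, -0.08 in Arrocillo and 0.06 in Cacahuacintle. It measured 0.18 in Conico and 0.12 in Confite with the supplemental UV-B RNA in channel 1, and -0.58 and -0.60 with the channels exchanged, so that the orders did not overlap within these lines. Its channel term was 0.37 (limma adjusted p = 0.0124), and 24% of probes had a called channel term. The mean of -0.24 (SE 0.07, limma adjusted p = 0.0195) moved to -0.04 without the Mishca array (limma adjusted p = 0.751), and to -0.13 when arrays were scaled to equal spread (limma adjusted p = 0.180). The difference between lines was called with the Mishca array (limma adjusted p = 0.0084) and not without it (limma adjusted p = 0.645).

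Centring by section left pOMT1 called at -0.27 (limma adjusted p = 0.0007) and brought cncr1 probe 2 to 0.21 (limma adjusted p = 0.0050). It moved PAL1 from 0.21 to 0.05, 4CL from -0.20 to -0.00 and cncr1 probe 1 from -0.26 to -0.05, none of which was then called. With that centring 35.3% of all probes were called. The 4CL mean then joined a Mishca value of 0.57 (limma adjusted p = 0.0034, where 45.4% of probes were called) to negative estimates in the other 5 lines. The difference between lines was called for 4CL (moderated F test, limma adjusted p = 0.0413) as well as for pOMT1 and cncr1 probe 2, and for 36.1% of all probes. 4CL and cncr1 probe 1 lie in the same section of that array design, whose 273 tested probes had a median of -0.20, with 2 calls on the positive side and 129 on the negative. The section of PAL1 had a median of 0.16, with 127 positive and 10 negative calls.

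**Figure D2:**
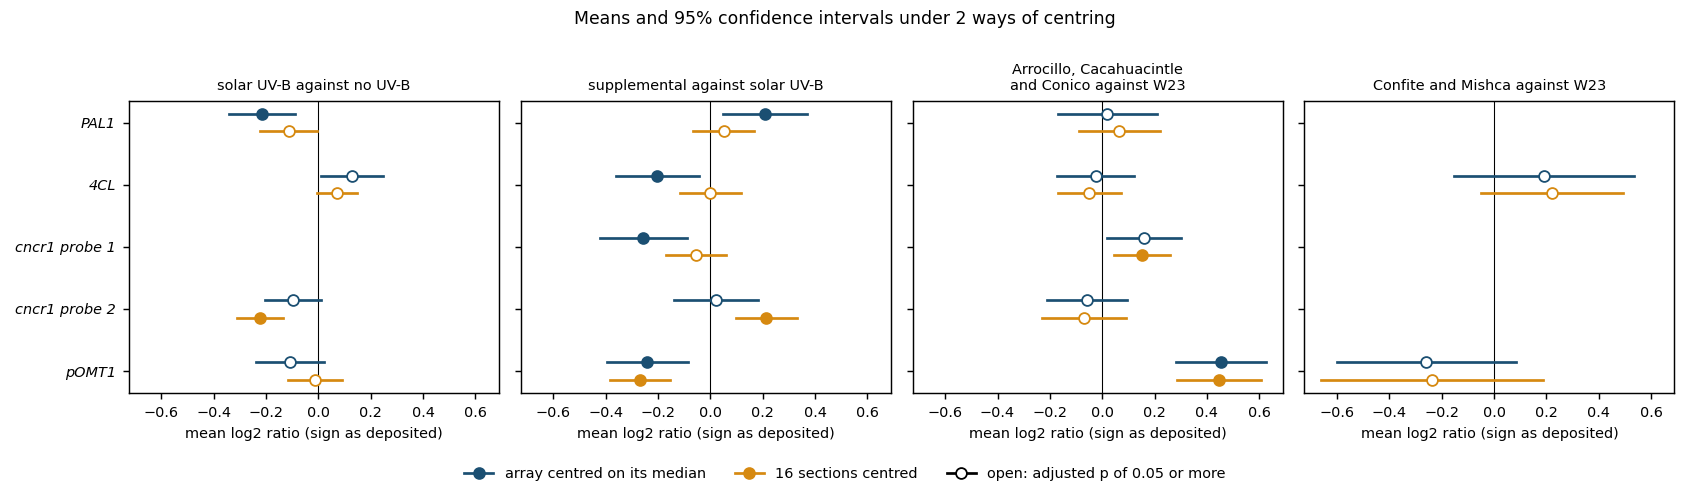
Mean log2 ratio over lines with its 95% confidence interval (x axes, sign as deposited) for the member probes tested in each comparison (y axes), with arrays centred on their median (blue) and with each of 16 sections centred (orange). Filled points have a limma adjusted p under 0.05. The means of pOMT1 against W23 in Arrocillo, Cacahuacintle and Conico, 0.45 in each way of centring, differ the least in relation to their size, and those of 4CL, PAL1 and cncr1 probe 1 under supplemental UV-B move to within 0.06 of 0.

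In Arrocillo, Cacahuacintle and Conico against W23, pOMT1 lay on the positive side on 10 of 12 arrays, as did cncr1 probe 1. pOMT1 was the 1 member called of 5, a share below that of all 5353 probes tested, of which 25.6% were. Its size of 0.45 was exceeded by 6.16% of probes. The median size of the 5 members was 0.06, beside 0.12 over all probes. All these arrays share W23, so a departure of W23 itself would enter each of them. Of 4 mesophyll marker probes, which ran from -0.80 to 0.28, only the lowest, lhcb5, was called. Of 2 bundle sheath probes, at 0.08 and 0.52, only the higher, rca1, was called. Of 7 seed and pollen probes 3 were called, 2 of them positive and 1 negative. The part of the markers in the pOMT1 result was not tested.

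pOMT1 measured 0.07, 0.67, 0.59 and 1.02 on the arrays of Arrocillo, 0.48, 0.75, 0.20 and 0.54 on those of Conico, and -0.20, 1.14, 0.57 and -0.13 on those of Cacahuacintle. All 8 values of Arrocillo and Conico were positive, and the negative values were both from Cacahuacintle arrays with the landrace RNA in channel 2. The 6 arrays with the landrace RNA in channel 1 ranged from 0.54 to 1.14 with a median of 0.71, and the 6 with it in channel 2 ranged from -0.20 to 0.59 with a median of 0.14. Both a mean over landraces of 0.45 (SE 0.08, limma adjusted p = 0.0011), a 1.37-fold difference, and a channel term of 0.28 (limma adjusted p = 0.0335), called for 13.9% of probes, passed the threshold. Arrocillo was called at 0.59 (limma adjusted p = 0.0130), where 8.2% of probes were, and Conico at 0.49 (limma adjusted p = 0.0452), where 5.32% were. Cacahuacintle stood at 0.28 and was not called (limma adjusted p = 0.276), and the 3 landraces were not shown to differ (moderated F test, limma adjusted p = 0.998, with 0.112% of probes called).

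pOMT1 was called on the positive side under each of the 22 alternatives run, with values from 0.32 to 0.50 and limma adjusted p-values up to 0.0291. The highest value came from leaving out the Cacahuacintle array with UV-B, and the lowest from reading the ratios as following the channel order. That reading turns the sign of an array with its order. Its value corresponds to the channel term of the main fit and is not the same quantity as the mean. Its section had a median of -0.00, and centring by section gave 0.45 (limma adjusted p = 0.0009).

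cncr1 probe 1 was positive on 10 of 12 arrays as well, between -0.28 and 0.39 with a median of 0.20. Its mean of 0.16 (SE 0.07) was not called (limma adjusted p = 0.0963), and it was called at 0.15 with sections centred (limma adjusted p = 0.0321), where 34.1% of probes were. It lies in the same section as pOMT1 on this array design. PAL1 lay between -0.51 and 0.32 with 6 arrays on each side and a mean of 0.02 (95% interval -0.17 to 0.21, limma adjusted p = 0.897). 4CL lay between -0.40 and 0.27 with a mean of -0.03 (95% interval -0.17 to 0.12, limma adjusted p = 0.823). cncr1 probe 2 lay between -0.37 and 0.42 with 6 arrays on each side and a mean of -0.06 (95% interval -0.21 to 0.10, limma adjusted p = 0.592).

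The arrays with UV-B were set against those without in the same fit. The difference was -0.02 for pOMT1 (95% interval -0.37 to 0.33), 0.13 for PAL1 (-0.25 to 0.52), 0.05 for 4CL (-0.25 to 0.35), 0.19 for cncr1 probe 1 (-0.10 to 0.48) and -0.24 for cncr1 probe 2 (-0.55 to 0.07). None was called, with limma adjusted p-values of 0.969 or more, and the intervals of PAL1 and of both cncr1 probes reach a size of 0.45, that of the pOMT1 mean, while those of pOMT1 and 4CL do not. Cacahuacintle had 1 array with UV-B and 3 without, by its labels.

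**Figure D3:**
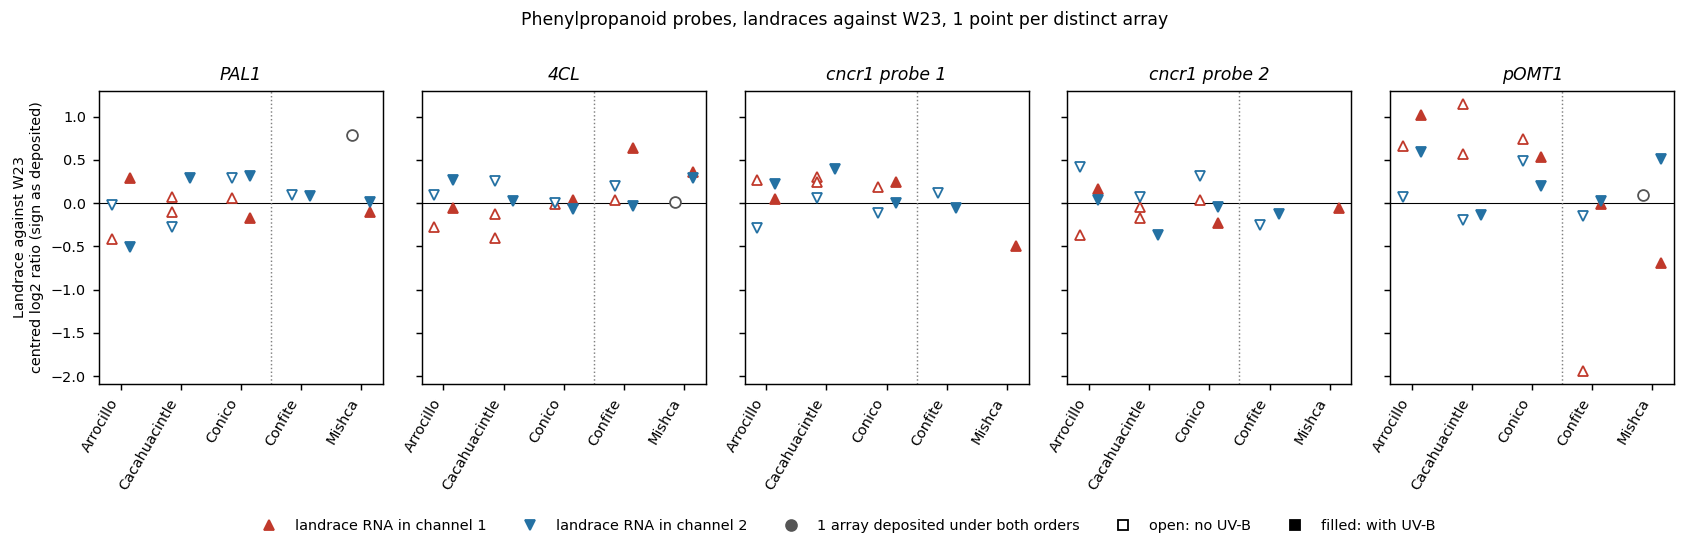
Centred log2 ratios (y axis, sign as deposited) of the 5 probes for each landrace against W23 (x axes). Each point is 1 distinct array, shaped by channel order, open without UV-B and filled with UV-B, and the dotted line parts the array sets. pOMT1 lies above 0 on 10 of 12 arrays left of the line, and its lowest point on the right is -1.94 in Confite, from 1 spot.

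For Confite and Mishca against W23, 1.63% of 2089 probes were called and none of the members was. Only 4CL and pOMT1 could be tested. 4CL lay on the positive side on 6 of 7 arrays, between -0.03 and 0.64, with a mean of 0.19 (95% interval -0.15 to 0.53, limma adjusted p = 0.996). pOMT1 measured -0.15 and -1.94 in Confite without UV-B, -0.01 and 0.03 with it, 0.09 in Mishca without UV-B and 0.51 and -0.70 with it. Its mean was -0.26 (95% interval -0.60 to 0.09, limma adjusted p = 0.982). In this fit the moderation gave all probes the same variance, so 4CL and pOMT1 both had an SE of 0.18. Their intervals and p-values therefore do not measure the spread of their own values. The array that gave -1.94 had 72.6% of its spots blank, the largest share of any array, and the value comes from 1 of the 3 pOMT1 spots. Without that array the mean was -0.11. PAL1 was measured on 5 of 7 arrays without a residual degree of freedom, at 0.09 and 0.09 in Confite and 0.79, 0.01 and -0.10 in Mishca. The highest value came from 1 spot on the only distinct Mishca array without UV-B. Each cncr1 probe was measured on 3 arrays, probe 1 between -0.49 and 0.12 and probe 2 between -0.25 and -0.05. These arrays and those of the other landraces were fitted apart, because they are of different tables, so pOMT1 was not tested for a difference between the 2 sets.

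The probes of cncr1 did not move as 1 gene. They lay on the same side on 14 of the 30 arrays that measured both, on 2 of 7 under solar UV-B, on 6 of 8 under supplemental UV-B and on 4 of 12 in the larger landrace set. The median distance between them was 0.36 and the largest, on the Mishca array under supplemental UV-B, was 0.87. For the spots of 1 probe, over the member probes, the SD on an array had a median of 0.03 and a highest value of 0.24. Those spots share a section, while the cncr1 probes lie in different sections on both array designs. That SD therefore does not take in a shift between sections. Since the probes differed, every statement on cncr1 holds for a probe and not for the gene.

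**Figure D4:**
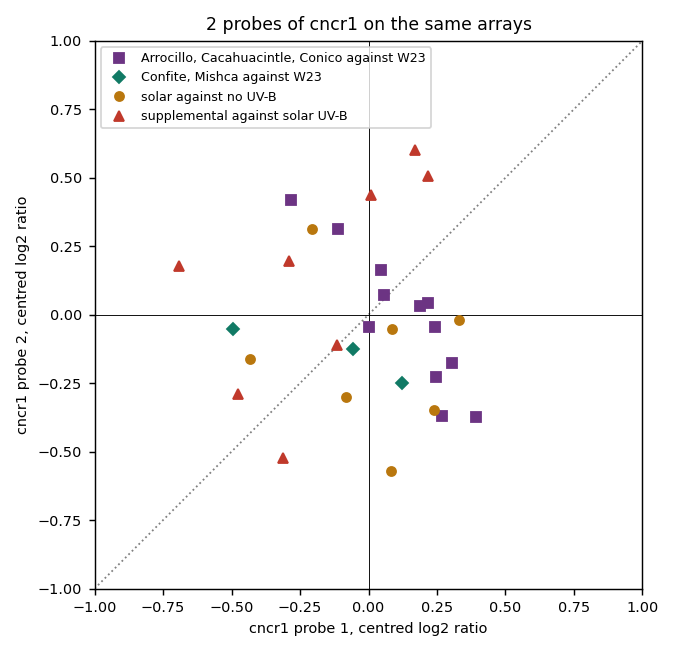
Centred log2 ratio of cncr1 probe 1 (x axis) and cncr1 probe 2 (y axis), with 1 point for each of the 30 arrays that measured both, marked by comparison. The dotted line marks equal values. In all, 14 points lie on the same side of 0 for both probes, and in the larger landrace set 4 of 12 do.

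Of the other genes on a list for this pathway, 3 were on the arrays. LAC1, a laccase of the family that couples monolignols into lignin, stood at -0.01 under solar and 0.00 under supplemental UV-B and at -0.17 in Arrocillo, Cacahuacintle and Conico against W23 (limma adjusted p-values 0.902, 0.971 and 0.396). myb31, a MYB factor known in maize to repress lignin genes, was not tested under solar UV-B, stood at -0.02 under supplemental UV-B and at -0.19 against W23 (limma adjusted p-values 0.842 and 0.0761). sam2 stood at 0.00, 0.15 and -0.02 (limma adjusted p-values 0.962, 0.138 and 0.901). None of the 3 was called in any of these means, and none could be tested in Confite and Mishca against W23. With sections centred, myb31 at -0.17 and sam2 at 0.23 were called under supplemental UV-B (limma adjusted p-values 0.0249 and 0.0071).

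The named genes whose values were most like those of a member were found by Pearson's r over the distinct arrays of a table, among probes measured with it on at least 75% of them, as a description in which arrays share RNA and channel order. In the table of 24 arrays, pOMT1 was most like Lsi1 (r = 0.93 over 23 arrays), hsp101 (0.92 over 19) and EF1A (0.91 over 22). 4CL was most like crt2 (0.90 over 24), ys1 (0.88 over 18) and TOR (0.88 over 21). PAL1 was most like Cystatin-1 (0.72 over 20), COR413-TM1 (0.70 over 19) and Lsi6 (0.66 over 22), and cncr1 probe 2 was most like rpot1 (0.61 over 19), me4 (0.59 over 19) and pep7 (0.56 over 20). cncr1 probe 1 was most like me2 (0.85), TIDP3100 (0.82) and gst2 (0.80), each over 18 arrays. In all, 6 of these 15 lay in the same section as the member, among them the 3 of cncr1 probe 1.

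In the table of 12 arrays, 4CL was most like rop1 (0.94), xyl1 (0.93) and pgl1 (0.93), and cncr1 probe 1 was most like OBF1 (0.89), ohp2 (0.83) and gst2 (0.82). pOMT1 was most like LOC542607 (0.86), LOC732771 (0.85) and hcf106 (0.83), PAL1 was most like EIF5 (0.78 over 9 arrays), pgr5 (0.71) and dxr (0.68), and cncr1 probe 2 was most like vpp1 (0.79), LOC542271 (0.76) and tip4a (0.73). Of these 15, 3 lay in the section of the member. gst2, a glutathione transferase gene, was named for cncr1 probe 1 in both tables and shared its section in both.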

How the data were processed

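Per the labels, each spotted cDNA array held a pair of maize leaf RNAs in 2 channels. The deposited tables give 1 log2 ratio per spot, per the file headers. The series' design text describes analysis of variance models of spot intensities. Whether the deposited log2 values passed through them, and which RNA is on top, is not given in the sources used here. Depth has no meaning for arrays, and their number limits the precision.

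Columns equal to another up to a constant (SD of the difference under 0.01) were counted once, with a channel code of 0. The third W23 solar array, within an SD of 0.032 of the mean of the other W23 arrays, was left out. W23 and W23 b,pl were treated as 1 line. The 3 spots of a probe were averaged, and arrays were centred on the median over probes. Each probe was fitted by least squares with 1 term for every line (against W23, every combination of landrace and treatment) and 1 for the channel order. Variances were moderated with limma 3.58.1 in R 4.3.3, and p-values were two-sided and adjusted over all probes that had values on 75% or more of the arrays and in every group. The fit was tested on simulated data. Confidence intervals are at 95%.

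Same-numbered arrays of different lines deviated together under solar UV-B (r of 0.48 to 0.88), but the number is also the channel order, so a replicate block gave the same fit there. Names came from the platform annotation and the symbols of Zm-B73-REFERENCE-NAM-5.0 (314 of 329 genes matched). The genes, lists and tests were chosen with earlier results of these data known. Named genes are all member probes, all measured genes of the lists, and per member probe and table the 3 named probes with the highest r. Alternatives were other centring, scaling, channel terms, filters, spot summaries, line means, replicate blocks, other treatment of repeated columns, ratios read by channel order, and leaving out each array. Reading by channel order left out the arrays deposited under both orders. It kept W23, Conico and Mishca under solar UV-B, and Confite and Conico under supplemental UV-B.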

Additional observations from a re-analysis of the deposited data

Results flagged for a closer look

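Under supplemental UV-B, pOMT1 and cncr1 probe 2 differed between lines by a moderated F test (limma adjusted p = 0.00844 and 0.02558). Of all probes, 24.6% did. For pOMT1 the difference lay in the Mishca array, at -1.24: without that array the limma adjusted p was 0.645, and with arrays scaled to equal spread it was 0.248. For cncr1 probe 2 the W23, Arrocillo and Cacahuacintle arrays lay on the negative side and those of Mishca, Confite and Conico on the positive. Its F was 5.06, and its limma adjusted p was 0.0507 without the Mishca array (F 6.29) and 0.195 with arrays scaled (F 5.29), where the share of all probes called fell to 4.34% and 0.105%. Without the W23 array F was 3.47 and the limma adjusted p 0.0912, with 25% of all probes called.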

How the results depend on the processing

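Under solar UV-B 1 member was called. The count was 0 without centring, without a channel term, with ratios read by channel order and with line means as replicates, and 2 with repeated columns given their second channel order and in the lines with both orders, with or without sections centred. Leaving out an array gave 0 to 3, with 3 when either W23 array and 0 when the second Mishca or Conico array was left out. Under supplemental UV-B 4 were called, against 2 without centring, with sections centred and with repeated columns given their first order, 1 with their second order and in the lines with both orders (either centring), and 0 with scaling, without a channel term, by channel order and with line means. Leaving out an array gave 0 to 3, with 0 without Mishca and 2 without W23 or Arrocillo. Leaving out a Confite or Conico array left no residual degree of freedom and gave no test. In Arrocillo, Cacahuacintle and Conico against W23, 1 was called, against 2 with sections centred, and 1 to 2 when an array was left out (2 without Arrocillo replicate 2 under UV-B). In Confite and Mishca 0 were called under all 19 alternatives run. The replicate block gave the same counts of member calls in each comparison. Its count over all probes was 1485 under solar UV-B, 1504 under supplemental UV-B, 1143 against 1368 in the larger landrace set and 37 against 34 in the smaller. The counts over all probes ranged widely too: under solar UV-B 11 without a channel term, 652 without centring, 653 in the lines with both orders, and 2567 and 2437 without the first or second W23 array. Under supplemental UV-B they were 0 without a channel term, 184 in the lines with both orders, 733 without Mishca and 879 with scaling. The F test between lines called 1 probe under solar UV-B and 821 with sections centred, and under supplemental UV-B 1168, against 1713 with sections centred, 206 without Mishca and 5 with scaling.

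In 24 cases a member's mean changed side, never with a limma adjusted p under 0.05 on the new side. By channel order, PAL1 stood at 0.023 and cncr1 probe 2 at 0.080 under solar UV-B, from W23, Conico and Mishca only. Under supplemental UV-B, from Confite and Conico only, PAL1 stood at -0.065, cncr1 probe 1 at 0.088 and pOMT1 at 0.37. Against W23, PAL1 stood at -0.066 by channel order. In the lines with both orders, pOMT1 stood at 0.10 under solar UV-B (0.079 with sections centred), 4CL at -0.083 with sections centred, and cncr1 probe 1 at 0.026 under supplemental UV-B (0.058 with sections centred). Under supplemental UV-B, pOMT1 stood at 0.0070 with repeated columns given their second order, and cncr1 probe 2 at -0.0032 with their first, at -0.0081 with scaling and between -0.011 (without Mishca) and 0.13 over arrays left out. Against W23, PAL1 stood at -0.045 without centring, and over arrays left out PAL1 lay between -0.072 and 0.090, 4CL between -0.065 and 0.0051 and cncr1 probe 2 between -0.11 and 0.024. The causes were not tested.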
